A study of Homo sapiens with 16 samples.

Results

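The cytosolic ribosomal proteins were the 77 entries of the count table whose symbol is RPL or RPS followed by a number and at most 1 letter A or X, or is RPLP0, RPLP1, RPLP2 or RPSA, with a mean of at least 10 counts over 16 libraries, out of 20531 entries in all. All 77 symbols that matched reached that mean, and all 77 passed the filter on low counts, so that none was lost among the 10684 genes tested. The large subunit gave 46 members and the small subunit 31. The cells were LNCaP, a line from a human prostate cancer that responds to androgen. They carried either a nonsense siRNA (NS) or pooled siRNAs against SLIRP, an RNA-binding protein and nuclear receptor corepressor, each at 40 nM for 24 h. They then received vehicle (EtOH) or 1 nM of the androgen dihydrotestosterone (DHT) in serum-free medium for another 24 h. The 4 groups, NS-Veh, NS-DHT, SLIRP-Veh and SLIRP-DHT, had 4 libraries each, so that every group carried an siRNA and lacked serum for the last 24 h. The 4 replicates of a group came as 2 from each of 2 experiments of 1 cell line, per the study's methods, and p-values measure the spread between these libraries only. The comparisons address how loss of SLIRP and androgen, alone and together, alter the transcriptome.

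Each cytosolic ribosome is built of a small subunit, which decodes the mRNA, and a large subunit, which forms the peptide bond and holds the tunnel through which the new chain leaves. Their proteins are made from single genes, mostly in equal numbers per ribosome, and are assembled with ribosomal RNA in the nucleolus. The mRNAs of most of them begin with a C followed by a run of pyrimidines, the 5′ terminal oligopyrimidine (TOP) motif, through which mTORC1 and LARP1 control their translation and stability. Several of the proteins have a further role when free of the ribosome, such as RPL5 and RPL11, which bind MDM2 together with 5S rRNA.

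The start of the mRNA is shown for 4 members that rose and 4 that fell, from among those with the larger changes, since the TOP motif is the feature most of the mRNAs share. Each line gives 15 bases before and 15 bases from an annotated RefSeq start, 5′ to 3′ on the strand of the gene. The right part is therefore the beginning of exon 1 and of the 5′ UTR. Where a member had more than 1 start, a start with the motif was taken if there was one. Capitals mark a C at the start and the pyrimidines that follow it without a break, where at least 4 follow. Positions are those of the only exact match in GRCh37. RPS9, which fell the most, has no exact match there and is left out.
RPL26 (higher with SLIRP siRNA, chr17:8286497-8286526, minus strand): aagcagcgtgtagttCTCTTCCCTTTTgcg
RPL11 (higher, chr1:24018281-24018310, plus strand): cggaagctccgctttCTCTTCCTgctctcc
RPS24 (higher, chr10:79793606-79793635, plus strand): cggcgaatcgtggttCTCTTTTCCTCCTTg
RPS26 (higher, chr12:56435687-56435716, plus strand, no motif at this start): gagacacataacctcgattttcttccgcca
RPL36 (lower, chr19:5690291-5690320, plus strand): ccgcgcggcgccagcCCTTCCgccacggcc
RPL39 (lower, chrX:118925579-118925608, minus strand): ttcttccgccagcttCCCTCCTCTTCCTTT
RPS27 (lower, chr1:153963223-153963252, plus strand): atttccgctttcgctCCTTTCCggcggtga
RPS19 (lower, chr19:42364310-42364339, plus strand): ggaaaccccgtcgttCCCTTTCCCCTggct

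The motif stood at 7 of these 8 starts, RPS26 being the exception. Since starts with the motif were preferred, this count does not measure how common it is. RefSeq gave a start for 62 of the 77 members, and the motif stood at that start in 46 of them (74.2%), against 7.83% of the 8695 tested genes with a start. It was found in 11 of 13 members that rose with SLIRP siRNA, 16 of 19 that fell and 19 of 30 that did not pass the test. The other 15 members have no entry.

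SLIRP siRNA changed 38 of the 77 members, in both directions. In the mean of its effects in vehicle and in DHT, 17 members rose and 21 fell (edgeR quasi-likelihood test, Benjamini-Hochberg adjusted p under 0.01 over all genes tested). That is 49.4% of the members, against 37.2% of all genes tested (18.8% higher and 18.4% lower) and 53.5% of the 3195 genes at least as abundant as the least abundant member, RPS28. The share of changed members was therefore not above that of these 3195 genes, which are called genes of like abundance here and below. They share only this lower limit and were not matched to the members, whose mean counts had a median of 459. In such bulk libraries, fewer cells of a kind and less RNA per cell cannot be told apart. Log2 fold changes ran from -0.61 for RPS9 to 0.70 for RPL26, with a median of -0.06 against -0.02 over all genes tested. The median size of change, whatever its direction, was 0.19 among the members and 0.26 among genes of like abundance, and the SE of a member's change had a median of 0.06. A member that did not pass is therefore not shown to be unchanged.

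**Figure D1:**
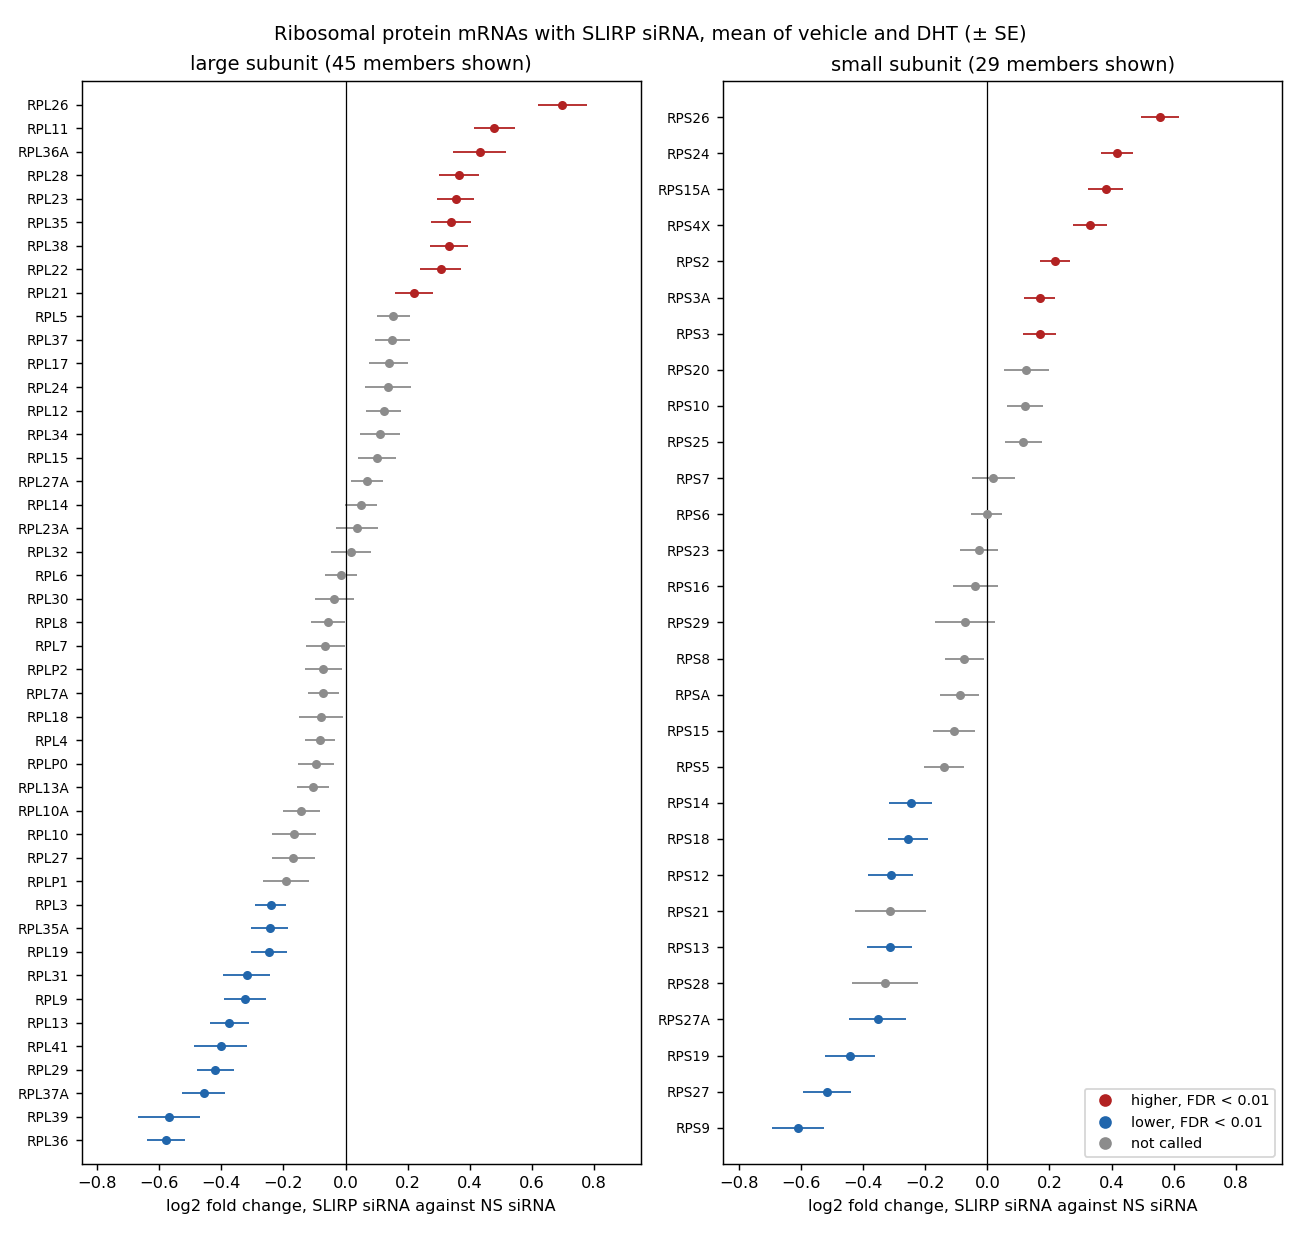
Log2 fold change with SLIRP siRNA (x axis, mean of the effects in vehicle and in DHT, bars ± SE) of 45 large and 29 small subunit members (y axis, ranked). Red points rose, blue points fell and grey points did not pass an adjusted p of 0.01. Both subunits have members at both ends, from -0.58 to 0.70 in the large and from -0.61 to 0.56 among those shown of the small subunit.

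RPL26, which lies at the mouth of the peptide exit tunnel, rose the most. Its level in CPM (counts per 1e+06 of the library, scaled by TMM) was 534 at the lowest, 633 at the median and 696 at the highest of the 8 NS libraries, and 774, 1009 and 1465 in the 8 libraries with SLIRP siRNA. The groups did not overlap, the highest value being that of SLIRP-Veh replicate 2, and the log2 fold change was 0.70 ± 0.08 (SE, n = 8 and 8, adjusted p = 1.6e-09 with edgeR). RPL11, one of the partners of 5S rRNA, had between 478 and 609 CPM in NS libraries and between 629 and 997 CPM with SLIRP siRNA. Its log2 fold change was 0.48 ± 0.07 (adjusted p = 1.48e-07 with edgeR). RPL36A, near the exit site for tRNA, rose by 0.43 ± 0.08 on the log2 scale, with groups that overlapped. RPL28 rose by 0.37 ± 0.06 without overlap, from 351 to 472 CPM in NS libraries to 476 to 625 CPM with SLIRP siRNA.

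In the small subunit, RPS26, which touches the mRNA as it leaves the ribosome, was among those that rose the most. Its CPM were 230 at the lowest, 287 at the median and 307 at the highest in NS libraries, and 363, 420 and 460 with SLIRP siRNA. The groups did not overlap, and the log2 fold change was 0.56 ± 0.06 (adjusted p = 8.59e-10 with edgeR). RPS24 had 1027 to 1226 CPM in NS libraries and 1353 to 1744 CPM with SLIRP siRNA, a log2 fold change of 0.42 ± 0.05. RPS15A, with 394 to 473 and 503 to 643 CPM, changed by 0.38 ± 0.06. RPS24 and RPS26 are among the genes mutated in Diamond-Blackfan anaemia, an inherited failure of red cell production, as is RPS19, which fell.

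Others that rose were RPL23, RPL35, RPL38, RPL22 and RPL21 of the large subunit and RPS4X, RPS2, RPS3A and RPS3 of the small, with log2 fold changes between 0.17 and 0.35. RPS2 and RPS3 line the entry of the mRNA channel. Of these 9, RPS4X, RPL38 and RPS2 had groups that did not overlap. The calls of RPS3 (adjusted p = 0.0082), RPS3A and RPL21 were close to the limit. RPS3 lost its call when any of 10 libraries was left out (adjusted p between 0.0103 and 0.0254 with edgeR), namely NS-Veh replicates 1 and 2, NS-DHT replicates 1, 2 and 3, SLIRP-Veh replicates 3 and 4 or SLIRP-DHT replicates 1, 3 and 4. RPS3A lost it without NS-Veh replicate 1, NS-DHT replicate 2 or SLIRP-DHT replicate 3 (0.0104 to 0.0213), and RPL21 without NS-DHT replicate 2 or SLIRP-Veh replicate 3 (0.0103 to 0.0104).

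RPS9, a small subunit protein at the mRNA entry that affects the accuracy of decoding, fell the most. Its CPM were 298 at the lowest, 307 at the median and 342 at the highest in NS libraries, and 141, 200 and 258 with SLIRP siRNA. The groups did not overlap and the log2 fold change was -0.61 ± 0.08 (adjusted p = 1.29e-07 with edgeR). RPS27 had 192 to 275 CPM in NS libraries and 116 to 190 CPM with SLIRP siRNA, again without overlap, and a log2 fold change of -0.52 ± 0.08. RPS19, which is needed to mature the small subunit's rRNA, went from 198 to 263 CPM in NS libraries to 125 to 202 CPM, where the ends of the groups overlapped, with a log2 fold change of -0.44 ± 0.08. RPS27A, made as a fusion with ubiquitin, changed by -0.35 ± 0.09 with overlapping groups.

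In the large subunit, RPL36 fell the most. Its CPM were 518 at the lowest, 569 at the median and 604 at the highest in NS libraries, and 307, 375 and 459 with SLIRP siRNA, a log2 fold change of -0.58 ± 0.06 (adjusted p = 3.78e-10 with edgeR). RPL39, a protein of 51 residues in the wall of the exit tunnel, had 204 to 257 CPM in NS libraries and 97.1 to 188 CPM with SLIRP siRNA, a log2 fold change of -0.57 ± 0.10. RPL37A had 426 to 496 and 258 to 421 CPM, and RPL29 803 to 947 and 544 to 742 CPM. These 4 members, and RPL3, which reaches towards the peptidyl transferase centre, had groups that did not overlap. RPL3 is abundant and changed less than the other 4. It had 1535 to 1731 CPM in NS libraries, 1225 to 1482 CPM with SLIRP siRNA and a log2 fold change of -0.24 ± 0.05.

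Others that fell were RPL41, RPL13, RPL9, RPL31, RPL19 and RPL35A of the large subunit and RPS13, RPS12, RPS18 and RPS14 of the small, with log2 fold changes between -0.40 and -0.24 and overlapping groups. RPS14 lost its call without NS-Veh replicate 3 or 4, SLIRP-Veh replicate 1 or SLIRP-DHT replicate 1 or 2 (adjusted p between 0.0102 and 0.0202 with edgeR). RPS28, the least abundant member with a mean of 84.9 counts, stood just outside the limit with a log2 fold change of -0.33 ± 0.11 and an adjusted p of 0.0101.

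Over all members, the 8 libraries with SLIRP siRNA lay above the 8 NS libraries without overlap in 10 and below them in 7. Among all genes tested, 7.54% lay above and 7.06% below in the same way (14.6% in all). The share among genes of like abundance is not given, so that no excess of the members is read from this.

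**Figure D2:**
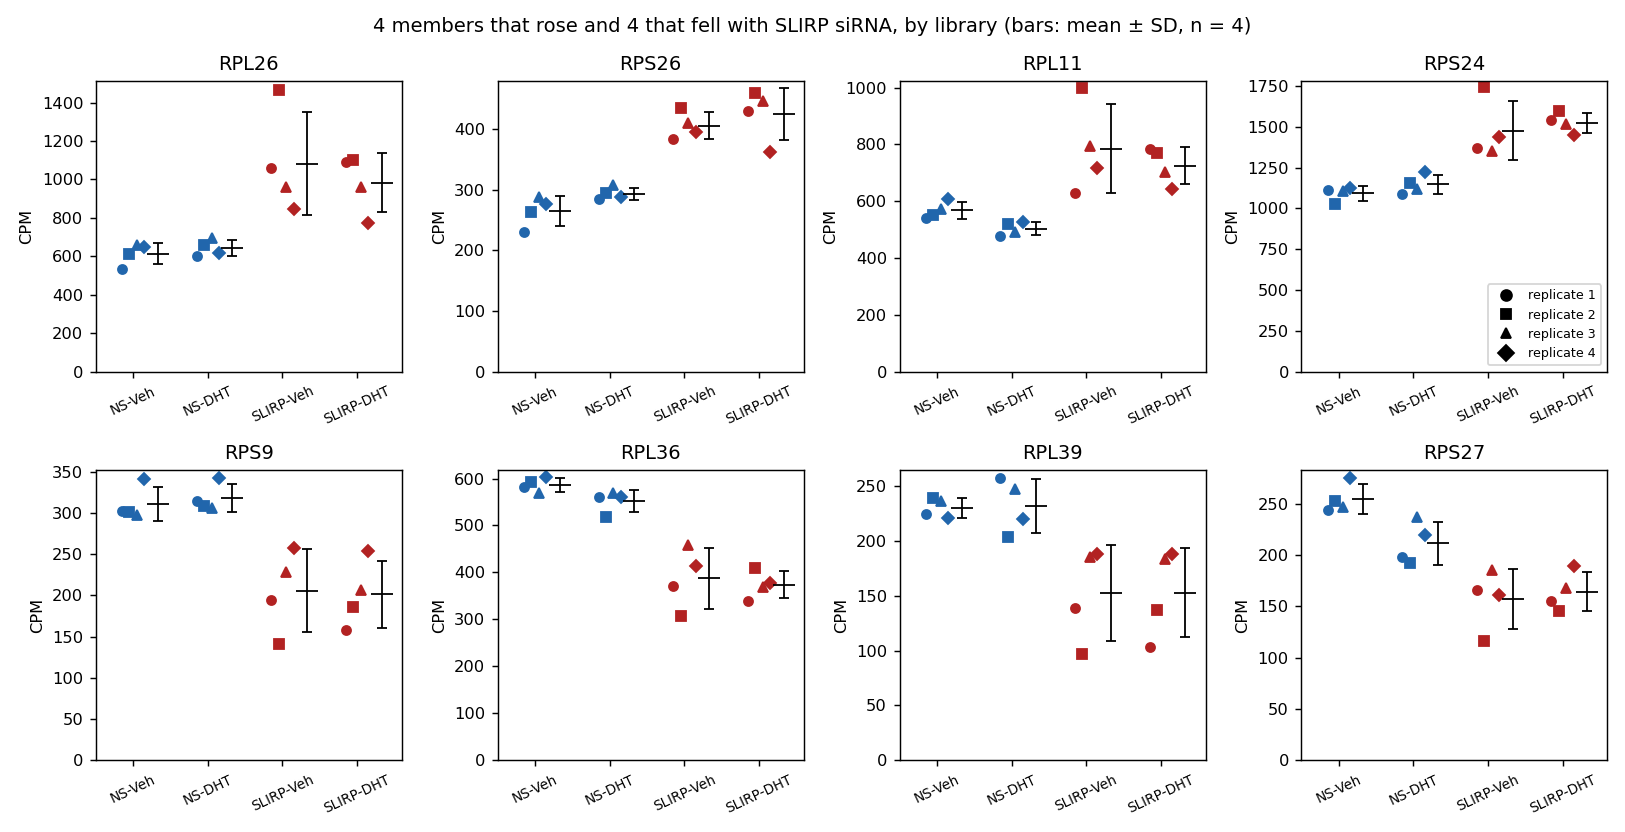
Level in CPM (y axis, from 0) of 4 members that rose (upper row) and 4 that fell (lower row) with SLIRP siRNA, in each library of the 4 groups (x axis), with bars for the mean ± SD of 4 libraries. In each panel the 8 red points with SLIRP siRNA and the 8 blue NS points do not overlap, and the SLIRP-Veh replicate 2 square is the highest red point of RPL26, RPL11 and RPS24 and the lowest of RPS9, RPL36, RPL39 and RPS27.

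One library, SLIRP-Veh replicate 2, stood out among those with SLIRP siRNA. It had the fewest counts of these 8 libraries (646600, the most being 1689708), and the part of depth was not tested. SLIRP-Veh replicate 2 had the most extreme of the 8 values in 25 of the 38 changed members, being the highest in 10 of 17 that rose and the lowest in 15 of 21 that fell. Over all 3970 changed genes it was the most extreme library in 19.2%, and over the called genes of like abundance in 22.4%. Without it all 38 members kept their call and direction, with log2 fold changes that were 0.91 times as large at the median. The changes were also larger in replicates 1 and 2 than in replicates 3 and 4. The median log2 change in the called direction was 0.47 over the 38 members in replicates 1 and 2 and 0.24 in replicates 3 and 4, and 34 of the 38 were larger in the former. Over 3896 called genes fitted in both sets the medians were 0.64 and 0.54, and 67.9% were larger in replicates 1 and 2. RPL39 changed by -0.90 and -0.31 on the log2 scale in the 2 sets and RPL26 by 0.97 and 0.42. SLIRP itself, in the called direction, changed by 4.11 in replicates 1 and 2 and by 3.97 in replicates 3 and 4 on the log2 scale. Libraries of replicates 1 and 2 held 882612 ± 426840 counts and those of replicates 3 and 4 held 1183443 ± 230551 (SD, n = 8 each). The labels do not say whether the numbers mark the 2 experiments, and what made the sets differ was not tested. These sets were formed after the values were seen. With the 8 libraries of replicates 3 and 4 alone, 28 of the 38 calls held, and none of the 38 turned its direction in either set.

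The effect of SLIRP siRNA was of like direction with and without androgen. In vehicle 12 members rose and 13 fell (32.5%). Of all genes tested 21.7% were called there (11.8% higher and 9.95% lower), and of those of like abundance 36.2%. In DHT 12 members rose and 11 fell (29.9%), against 24.4% of all genes tested (12.8% higher and 11.6% lower) and 39.7% of those of like abundance. These 2 comparisons share no libraries. Of the members, 19 were called in both, 6 in vehicle alone and 4 in DHT alone, which does not show that any of them differed between the conditions. The sign was the same in 71 of 77 members, and in 81.6% of all genes tested. Across the 77 members, Pearson's r between the effects was 0.930 and Spearman's rho 0.933, against 0.830 and 0.808 across all genes tested. These are descriptions across genes, which are not independent replicates and share the libraries. For sign and correlation, genes of like abundance were not set apart. The split counts leaned on single libraries. In vehicle the falls dropped from 13 to 6 without SLIRP-Veh replicate 1, and to 8 without NS-Veh replicate 3, NS-Veh replicate 4 or SLIRP-Veh replicate 2. In DHT the rises dropped from 12 to 7 without NS-DHT replicate 1, SLIRP-DHT replicate 2 or SLIRP-DHT replicate 3, and the falls from 11 to 5 without SLIRP-DHT replicate 1 and to 7 without NS-DHT replicate 4 or SLIRP-DHT replicate 2.

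**Figure D3:**
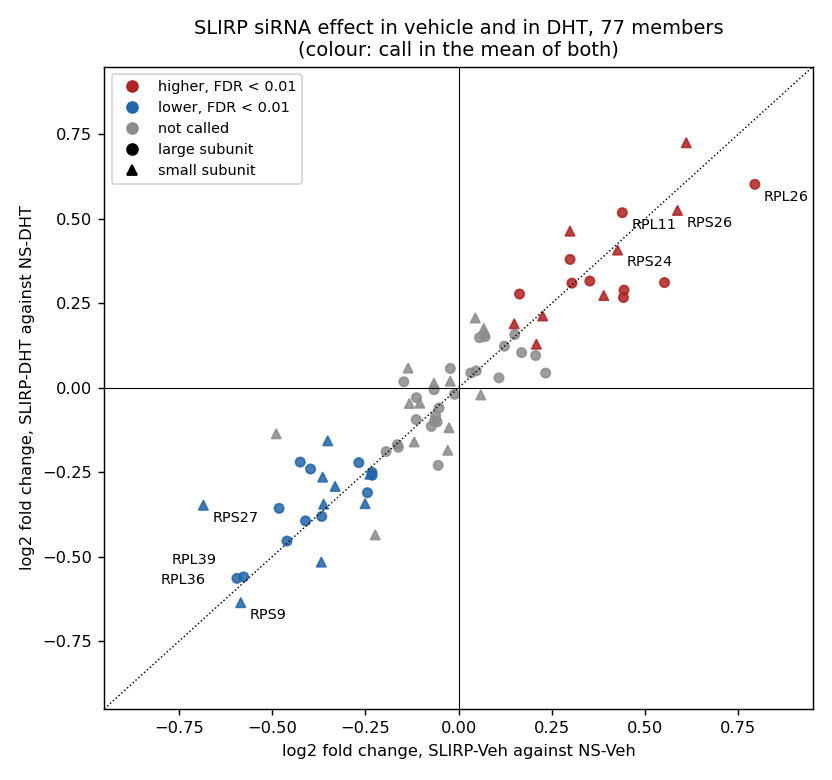
Log2 fold change with SLIRP siRNA in vehicle (x axis) and in DHT (y axis) of the 77 members, as circles for the large and triangles for the small subunit, coloured by the call in the mean of both. The points follow the dotted line of equal effects (r = 0.930), with 71 of 77 in the quadrants of equal sign.

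No member passed the test for DHT. In NS cells 0 of 77 were called with edgeR, against 1.09% of all genes tested (0.777% higher and 0.309% lower) and 2.54% of genes of like abundance. At an unadjusted p under 0.05, 0 were higher and 5 lower with edgeR, 0 and 5 with DESeq2 and 0 and 1 with limma on the normalized table. Log2 fold changes ran from -0.27 (RPS27) to 0.17 with a median SE of 0.09. KLK3, which encodes the androgen-induced prostate-specific antigen, rose in the same libraries from 25.5 to 52.2 CPM in NS-Veh to 246 to 327 CPM in NS-DHT. In cells with SLIRP siRNA DHT again gave 0 of 77 calls with edgeR, against 1.17% of all genes tested (0.636% higher and 0.534% lower) and 2.97% of genes of like abundance. There were 0 higher and 6 lower at an unadjusted p under 0.05 with edgeR, 0 and 4 with DESeq2 and 0 and 8 with limma. For the unadjusted counts, in NS cells, here and in the interaction below, the share of all genes tested is not given. These counts therefore do not show a shift of the members. The lowest adjusted p was that of RPL17, a protein of the exit tunnel. It had 648, 703, 627 and 753 CPM in SLIRP-Veh and 606, 563, 552 and 429 CPM in SLIRP-DHT replicates 1 to 4. All 4 values in DHT lay below all 4 in vehicle, and the log2 fold change was -0.35 ± 0.09 (adjusted p = 0.016 with edgeR). RPL17 was called with upper-quartile factors, without the filter on low counts, with at least 10 counts in every library, with the replicate number as a block and without SLIRP-DHT replicate 1 (adjusted p = 0.0033 to 0.0094). In NS cells RPL17 had 566, 598, 562 and 598 CPM in vehicle and 540, 519, 562 and 456 CPM in DHT.

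The interaction, that is the difference between the DHT effects with SLIRP siRNA and with NS siRNA, was called for 0 of 77 members and 0% of all genes tested. At an unadjusted p under 0.05, 1 member was higher and 0 lower with edgeR, 1 and 0 with DESeq2 and 0 and 0 with limma. That member was RPS27, with a difference of 0.34 ± 0.15 (adjusted p = 1.00 with edgeR). The SE of a member's interaction had a median of 0.13. Since the difference of RPS27 did not pass, differences well above that error may also go undetected at this depth. The 0 calls therefore do not show that the interaction is absent.

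**Figure D4:**
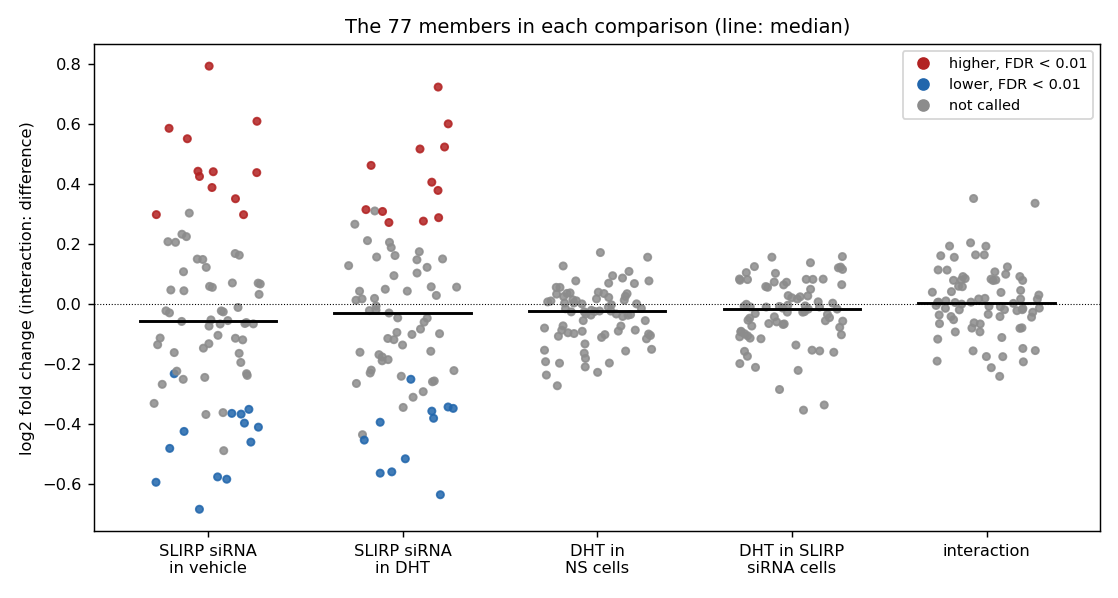
Log2 fold change (y axis) of the 77 members in the SLIRP siRNA and DHT comparisons and the difference of log2 fold changes in the interaction (x axis), with a line at each median and colours as in the ranked plot. Members spread from -0.68 to 0.79 with SLIRP siRNA in vehicle and from -0.27 to 0.17 with DHT in NS cells, where no point is coloured.

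Both subunits held members that rose and members that fell. In the large subunit 9 rose and 12 fell of 46 (45.7%), and in the small subunit 8 rose and 9 fell of 31 (54.8%). The median log2 fold change was -0.06 in the large and -0.07 in the small subunit. Their difference was 0.01, and it was 0.09, 0.09, 0.02 and -0.03 in replicates 1 to 4, so that it lay within the spread of the replicate numbers (SD 0.06). It turned to -0.02 without SLIRP-Veh replicate 1 and to -0.0034 with limma on the normalized table. With DHT in NS cells the difference of the medians was 0.03, with 0.04, 0.06, -0.02 and -0.02 by replicate number.

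The summed level of the members did not move with SLIRP siRNA beyond its spread. The sum was 47194 ± 1599 CPM in NS libraries (SD, n = 8, between 45093 and 49552 CPM) and 47427 ± 2298 CPM with SLIRP siRNA (n = 8, between 45125 and 50411 CPM), a log2 ratio of 0.01 with an SD between libraries of a group of 0.06. The 77 members took 4.44% to 5.03% of the counts of a library. In all 4 groups the mean was higher in replicates 3 and 4 (48933 ± 1038 CPM, n = 8) than in replicates 1 and 2 (45689 ± 881 CPM, n = 8), a gap wider than that between the siRNAs. The sum of the large subunit was 30542 ± 1116 CPM in NS libraries and 29841 ± 1455 CPM with SLIRP siRNA, and that of the small subunit 16652 ± 517 and 17586 ± 897 CPM.

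The ratio of the sums nevertheless differed. The large subunit sum was 1.78 to 1.87 times the small in the 8 NS libraries (1.83 ± 0.03, SD) and 1.64 to 1.76 times with SLIRP siRNA (1.70 ± 0.04), without overlap. The ratio needs no scaling, since both sums come from 1 library. The lack of overlap, rather than the lower mean, rested on a few abundant members. RPS24 (380 CPM higher in the mean) and RPS2 (309 CPM) were among those that raised the small subunit sum, and RPL41 (-301 CPM), RPL3 (-250 CPM), RPL13 (-240 CPM) and RPL29 (-224 CPM) lowered the large, while RPL26 (403 CPM) raised it. The groups overlapped when any 1 of 5 members was left out of the sums, RPS2, RPS24, RPL13 and RPL29 among them, and without RPS2 the mean ratio was 2.07 in NS libraries and 1.94 with SLIRP siRNA. In medians, where each member counts alike, the subunits did not differ beyond the spread, as given above.

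**Figure D5:**
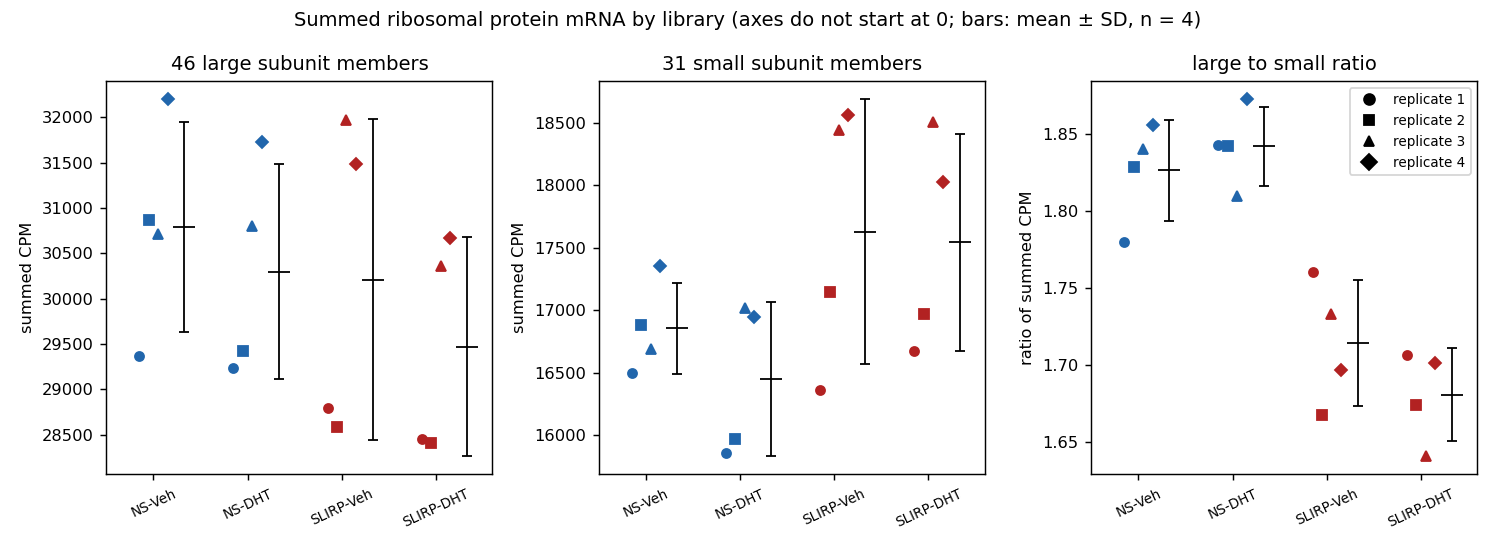
Summed CPM of the 46 large subunit members (left), of the 31 small subunit members (middle) and the ratio of the sums (right) in each library of the 4 groups (x axis; the y axes do not start at 0), with bars for the mean ± SD of 4 libraries. The sums of the NS (blue) and SLIRP siRNA (red) libraries overlap, with triangles and diamonds (replicates 3 and 4) mostly above circles and squares, while the ratio is 1.78 to 1.87 in NS and 1.64 to 1.76 in SLIRP siRNA libraries.

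Structural groups were described by their calls alone, beside the 37.2% called over all genes tested. In the stalk and its base, which recruit the elongation factors, none of RPLP0, RPLP1, RPLP2 and RPL12 passed the test, with log2 fold changes of -0.09, -0.19, -0.07 and 0.12. Of the partners of 5S rRNA, RPL11 rose and RPL5 did not pass (0.15 ± 0.05, adjusted p = 0.0139 with edgeR). Of 8 proteins of the peptide exit tunnel, RPL26 and RPL35 rose, RPL39, RPL31 and RPL19 fell, and RPL4, RPL17 and RPL23A did not pass, with -0.08, 0.14 and 0.04. Of 14 proteins of the small subunit's head, 2 rose, RPS3 among them, and RPS19, RPS27A, RPS12 and RPS18 fell. Of the members encoded on chromosome 19, 1 rose, 5 fell and 6 did not pass.

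Levels differed far more between members than between groups. Per kilobase of coding sequence (GENCODE), the mean level over 16 libraries had a median of 1126 CPM per kb. RPL41, whose coding sequence has only 75 bases, came out highest, at 16302 ± 1170 CPM per kb in NS libraries (SD, n = 8). Levels were divided by coding length alone, so that reads on untranslated parts would set them too high, for RPL41 as for any member. How far they did so was not tested. The order is that of the mean over all libraries. RPS24 (2873 ± 145) and RPL15 (2623 ± 152 CPM per kb in NS libraries) came next, and their ranges, 2633 to 3142 and 2472 to 2943, overlapped. Over all libraries the lowest were RPS9 (444), RPS27A (437) and RPS28 (394 CPM per kb). In NS libraries alone they had 540 ± 31, 495 ± 56 and 438 ± 46 CPM per kb, and RPL36A, at 482 ± 60, stood between RPS27A and RPS28. The place of RPS9 in the order came with its lower level with SLIRP siRNA (349 ± 73 CPM per kb). In NS libraries the ranges of RPS27A (422 to 612), RPS28 (392 to 530) and RPS9 (512 to 588) overlapped. RPL15 changed by 0.10 ± 0.06 with SLIRP siRNA, which did not pass. Across the 77 members, the log2 fold change with SLIRP siRNA had a Pearson's r of 0.22 with the log2 level per kb, 0.13 with log2 coding length and 0.20 with the log2 number of annotated pseudogenes. The median coding length was 411 bases in members that rose, 453 in those that fell and 495 in those that did not pass. Genes of the members hold small nucleolar RNAs in their introns in 29 of 77 cases, in 5 of 17 that rose, 7 of 21 that fell and 17 of 39 that did not pass.

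Processed copies make the counting of these genes uncertain, since a 50-base read can match a member and its pseudogenes alike. GENCODE lists 1587 pseudogenes of the 77 members, with the highest number for RPL21 (133). The count table has its own rows for 24 of them, from 15 members. RPS26P11 had 71.2% of the counts of RPS26 and rose like it, by 0.53 ± 0.07 and 0.56 ± 0.06 on the log2 scale. RPL23P8 had 21.2% of the counts of RPL23, with log2 fold changes of 0.35 ± 0.07 and 0.35 ± 0.06. RPSAP58 had 120% of the counts of RPSA, and neither passed the test. Other rows moved apart from their member. RPL23AP53 (0.48 ± 0.12) and RPL23AP7 (0.61 ± 0.17) rose, while RPL23A had a log2 fold change of 0.04, and RPL13AP6 fell (-1.06 ± 0.20), while RPL13A had -0.10. With the reads of these rows added to their member, 17 members rose and 21 fell as before, and 0 calls changed. Exons of RPL26, RPL36A, RPS15A and RPL22 among the members that rose, and of RPL17, overlap another gene on the same strand, and how reads there were shared out is not given in the sources used here.

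Of the core ribosomal proteins with other symbols, FAU and GNB2L1 did not pass the test. FAU, a fusion of a ubiquitin-like protein and a small subunit protein, had a log2 fold change of -0.10 ± 0.08 and GNB2L1, which encodes the scaffold protein RACK1, -0.04 ± 0.05. Of the 6 tested paralogs, 3 rose and 0 fell, beside 18.8% and 18.4% of all genes tested. RPL22L1 rose by 0.40 ± 0.06, from 308 to 411 CPM in the mean, beside the rise of RPL22. RPL36AL rose by 0.38 ± 0.09 beside that of RPL36A, and RPL7L1 by 0.26 ± 0.07. RPL26L1 (0.53 ± 0.17), RPS27L (0.05 ± 0.08) and RPL39L (-0.63 ± 0.24) did not pass. Paralog and member share sequence, so that reads may have been exchanged.

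Lists of genes that build ribosomes or share their control were set beside all genes tested, of which 18.8% rose and 18.4% fell. Of the genes at least as abundant as RPS28, 53.5% were called, but that set was not matched to the abundance of these lists. Of 72 nucleolar assembly factors, 34 rose and 3 fell with SLIRP siRNA, with a median log2 fold change of 0.33 against -0.02 over all genes tested and -0.06 over the members. TCOF1, a nucleolar factor of rRNA transcription, rose by 1.07 ± 0.13 and NOP16 by 0.89 ± 0.16, while NOP10 (-0.62 ± 0.11) and WDR3 (-0.61 ± 0.10) fell. Of 13 tested genes of RNA polymerase I and its initiation factors, 5 rose and 0 fell, with the largest rises in POLR1B (0.98 ± 0.11) and RRN3 (0.77 ± 0.09). Of 17 genes, mostly of translation factors, that were listed for known TOP mRNAs, 7 rose and 1 fell, with NAP1L1 (0.94 ± 0.05) and HNRNPA1 (0.49 ± 0.06) the highest and EEF1A1 (-0.30 ± 0.04), the factor that brings tRNA to the ribosome, the one that fell. Of 16 genes of the mTORC1 and LARP1 axis, 4 rose and 6 fell, with RHEB (1.17 ± 0.12) and EIF4EBP1 (0.96 ± 0.10) the highest and DDIT4 (-0.60 ± 0.09) and MTOR (-0.54 ± 0.10) the lowest. With DHT in NS cells, 1 of the 72 assembly factors rose and no gene of the other lists passed.

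Over the whole series, libraries held between 436353 and 1689708 counts, and mean counts of the members lay between 84.9 and 2081. SLIRP, listed under its older symbol C14orf156, had 45.1 to 63.4 CPM in NS libraries and 1.41 to 8.04 CPM with SLIRP siRNA, lower as the labels give it. All 9 luminal prostate markers were found, at a summed 4044 to 4613 CPM in NS libraries and 2972 to 3587 CPM with SLIRP siRNA. Their part in the changes of the members was not tested. Of 7 markers of basal, leukocyte, endothelial and fibroblast cells, KRT5, TP63, PTPRC and PECAM1 were at 0 in every library, which allows up to 1.78 to 6.88 CPM by depth. COL1A1 was found, with 216 counts over all libraries and a mean of 13.1 CPM, while KRT14 had 4 counts and COL1A2 had 2. The 7 summed to between 5.58 and 23.4 CPM.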

How the data were processed

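RNA of LNCaP cells was sequenced by the study as single reads of 50 bases. The authors deposited estimated counts per gene, as whole numbers, and a normalized table, whose values (a score) are these estimated counts over the upper quartile in each library, times a constant, as tested on the files. The processing notes name CASAVA, RSEM and hg19, without their roles or versions. The annotation and the strand setting are not given in the sources used here. The 29 entries without a symbol held 0.0353% of the counts and were left out.

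The counts were tested in R 4.3.3 with edgeR 4.0.16 (TMM, filterByExpr, glmQLFit, glmQLFTest) in 1 model of 4 groups over 16 libraries, with contrasts for each comparison and an FDR of 0.01 over 10684 genes. The SE is the size of the fitted log2 fold change over the root of the F statistic. This replaced the study's SAM, since the unit is a count. Libraries held 436353 to 1689708 counts, and a count of 0 allows up to 3 counts, for counting error only. Alternatives were DESeq2 1.42.0 on the counts, other scaling factors and filters, a replicate block, libraries left out, and limma 3.58.1 on log2(value + 1) of the normalized table, where fold changes of low genes come out too small. Models were tested on simulated data, where small changes were called only in part, and the criterion of that test was relaxed to changes above that size. Members and gene lists were chosen with earlier results of these data known. Medians, sums and lists got no test.

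Named were SLIRP and KLK3 as checks, the 4 highest and 4 lowest members per subunit, every member called against the majority direction, members of structural groups, any called in a DHT comparison, the 3 highest and 3 lowest levels per length, ubiquitin fusions, and the 2 largest changes each way per list, with core proteins and paralogs. The remaining called members and RPSA were added after their values were seen. Some members that these rules name are not reported here, though the counts and sums include them. Gene structures come from GENCODE on GRCh37. Start sequences come from a RefSeq table on GRCh38 and were placed in GRCh37 by exact match.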

Additional observations from a re-analysis of the deposited data

Results flagged for a closer look

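In groups of 4 libraries, a value was singled out when its gap to the nearest other library, divided by the range of the group, exceeded Dixon's 95% limit. This was done for 49 measures (the sums, the ratio and the members named) in 4 groups, and 11 of the 196 groups had such a library. Chance singles out about 1 group in 20, or 9.8 of 196, so the number as a whole is about that which chance gives. SLIRP-Veh replicate 2 was high for RPL12 (493 CPM, against 417 to 424 CPM in the others) and for RPL22 (440 CPM, against 338 to 354 CPM). SLIRP-DHT replicate 4 was low for RPL22 (292 CPM, against 381 to 385 CPM), and SLIRP-DHT replicate 1 was low for RPL28 (476 CPM, against 515 to 517 CPM). NS-DHT replicate 1 was high for RPL31 (304 CPM, against 253 to 258 CPM) and low for RPL5 (542 CPM, against 608 to 610 CPM) and RPS14 (408 CPM, against 449 to 456 CPM). NS-DHT replicate 2 was low for RPL36 (518 CPM, against 561 to 570 CPM). SLIRP-Veh replicate 1 was low for RPS2 (2069 CPM, against 2222 to 2232 CPM), SLIRP-DHT replicate 3 was high for RPS3A (1103 CPM, against 918 to 949 CPM), and NS-Veh replicate 4 was high for RPS9 (341 CPM, against 298 to 302 CPM). The sums and the ratio had no such library. No member passed the interaction test between siRNA and DHT.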

How the results depend on the processing

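Over 29 alternatives to the mean SLIRP siRNA effect, 24 of the 38 called members kept their call in every one, and none of the 38 changed sign. The alternatives for it gave 13 to 19 rises and 14 to 26 falls, among them only replicates 1 and 2 (16 and 23) and only replicates 3 and 4 (15 and 14), a choice made after seeing the data. Leaving out 1 library at a time gave 14 to 19 rises and 19 to 23 falls in the mean effect, 9 to 14 and 6 to 15 in vehicle, 7 to 14 and 5 to 15 in DHT, and 0 rises and 0 to 1 falls with DHT in SLIRP siRNA cells. Limma on the normalized table gave 7 falls in vehicle and 6 rises in DHT, and an FDR of 0.05 gave 20 falls in vehicle and 20 in DHT. With DHT in SLIRP siRNA cells, 1 member (RPL17) fell with upper-quartile factors, with no filter on low counts, with at least 10 counts in every library, with the replicate block and at an FDR of 0.05. The cause of these shifts was not tested.

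The replicate numbers were not taken to pair the samples, since the labels do not say what they mark and 6 of 16 correlations between same-numbered libraries, over 6965 genes, exceeded 0.1. All 16 were above 0 (0.00011 to 0.201). In 23 of 48 comparisons of a library with another group, the best correlation was with its own number. For 3 of 16 libraries this held in all 3 other groups, so that a shared source of same-numbered libraries was not settled. With the replicate block, 18 members rose and 22 fell in the mean effect, 15 and 17 in vehicle and 14 and 16 in DHT. The members with the largest SE were RPS21 and RPS28, which have few counts, and the interaction had larger SE than the other comparisons.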
